A study of Homo sapiens with 6 samples.

Results

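IFI6, IFI27, IFI44, IFI44L and XAF1 are 5 genes that cells switch on in response to interferon, and they were examined here in irradiated human keratinocytes. They were chosen by name with earlier results of these data known, and 1 transcript cluster (the array's unit for a gene) carried each symbol, so 5 of the 22411 genes with a single symbol on the array are described. For symbols with several clusters the brightest over all 6 arrays was taken, which for these 5 genes left nothing to choose. The clusters were TC01002412.hg.1 for IFI6, TC14000584.hg.1 for IFI27, TC01000795.hg.1 for IFI44, TC01000794.hg.1 for IFI44L and TC17000077.hg.1 for XAF1. IFI6, IFI44L and IFI44 lie on chromosome 1, IFI27 on chromosome 14 and XAF1 on chromosome 17.

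The study compared the coding and long non-coding transcripts of irradiated and unirradiated HaCaT cells, a spontaneously immortalised line of human skin keratinocytes. In one group, 3 cultures received 20 Gy of X-rays in 1 exposure, delivered at 1.15 Gy per min, and in the other, 3 cultures were mock irradiated (0 Gy), all being collected 48 h later. The cultures are called biological replicates and carry the numbers 1, 2 and 3 in each group. All 6 come from the same established line, so no value here speaks for primary keratinocytes or skin.

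Interferons bind receptors at the cell surface, whose kinases JAK1 and TYK2 pass the signal on to the nucleus. There, interferon-stimulated response elements in the promoters of many target genes are bound, and sensors of foreign nucleic acid can reach many of the same promoters through IRF proteins. IFI6 and IFI27 belong to 1 family of small hydrophobic membrane proteins (FAM14). IFI6 is found at mitochondria and the endoplasmic reticulum and is known to delay apoptosis and to hinder flaviviruses, while IFI27 is linked to mitochondrial cell death and is widely used as a blood marker of interferon activity. IFI44 and IFI44L are paralogs that lie side by side, and both have been described as feedback regulators of antiviral responses. XAF1 is a zinc finger protein that binds the caspase inhibitor XIAP and opposes it.

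The promoter of each gene is shown because interferon acts on these genes through short elements near the start site. RefSeq promoter windows (GRCh38.p14) of 300 bases, from 250 before to 50 after the start site, were found for 5 of 5 genes, with 2 alternative windows for IFI27, IFI44 and XAF1. The core of the interferon-stimulated response element (ISRE core), written as GAAA, any 2 bases and GAAA again, was searched on both strands. The windows are IFI6 at chr1:27672143-27672442, minus strand, IFI27 at chr14:94110486-94110785, plus strand, IFI44 at chr1:78649539-78649838, plus strand and IFI44L at chr1:78620198-78620497, plus strand. Each is written 5′ to 3′ along the gene, with ISRE core matches in capitals (a match on the other strand reads as its reverse complement, with TTTC at both ends).
IFI6: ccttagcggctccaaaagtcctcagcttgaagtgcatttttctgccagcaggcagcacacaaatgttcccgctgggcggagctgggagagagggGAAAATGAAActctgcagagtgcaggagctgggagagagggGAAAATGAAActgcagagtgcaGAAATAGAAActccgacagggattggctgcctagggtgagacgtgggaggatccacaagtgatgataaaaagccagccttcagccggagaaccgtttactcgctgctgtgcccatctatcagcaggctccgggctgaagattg
IFI27: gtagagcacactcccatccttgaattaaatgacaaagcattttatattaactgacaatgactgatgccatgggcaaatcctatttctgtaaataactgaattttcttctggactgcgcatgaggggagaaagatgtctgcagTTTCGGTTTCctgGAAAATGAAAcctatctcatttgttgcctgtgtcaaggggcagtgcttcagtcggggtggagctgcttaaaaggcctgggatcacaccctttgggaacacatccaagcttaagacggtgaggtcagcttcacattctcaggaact
IFI44: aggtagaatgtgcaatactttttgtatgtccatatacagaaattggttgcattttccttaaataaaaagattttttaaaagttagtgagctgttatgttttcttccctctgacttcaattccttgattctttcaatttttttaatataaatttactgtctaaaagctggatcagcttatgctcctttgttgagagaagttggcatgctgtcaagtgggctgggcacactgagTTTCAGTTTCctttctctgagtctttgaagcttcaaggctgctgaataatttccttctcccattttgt
IFI44L: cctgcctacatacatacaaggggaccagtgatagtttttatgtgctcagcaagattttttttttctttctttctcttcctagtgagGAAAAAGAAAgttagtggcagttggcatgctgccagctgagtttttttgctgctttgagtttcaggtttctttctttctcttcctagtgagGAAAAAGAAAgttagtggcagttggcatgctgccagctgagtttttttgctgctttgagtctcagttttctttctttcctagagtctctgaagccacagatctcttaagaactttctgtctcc

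IFI6 held 3 ISRE core matches, which began 156, 115 and 93 bases before the start site. The first pair lay in both copies of a direct repeat of 29 bases. IFI27 held 2 matches in opposite orientation, beginning 108 and 95 bases before the start site of the window shown. From the start site of its other window they lay at 187 and 174. IFI44 held 1 match, 18 bases before the start site of the window shown and 60 before that of its other window. IFI44L held 2, at 164 and 73 bases before it, each inside a copy of a direct repeat of 85 bases. A direct repeat of at least 20 bases occurred in 1.75% of all 35116 windows. The longest stretch that the IFI44L and IFI44 windows shared was 13 bases.

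XAF1 differed in its letters, and its window is printed for that reason. Neither of its 2 windows held the ISRE core. The shorter IRF core AANNGAAA, which every ISRE core contains and which was searched after the first result was seen, had 3 matches in the window at chr17:6755796-6756095, plus strand, shown in capitals. The last of these begins at base 8 of the transcript.
XAF1: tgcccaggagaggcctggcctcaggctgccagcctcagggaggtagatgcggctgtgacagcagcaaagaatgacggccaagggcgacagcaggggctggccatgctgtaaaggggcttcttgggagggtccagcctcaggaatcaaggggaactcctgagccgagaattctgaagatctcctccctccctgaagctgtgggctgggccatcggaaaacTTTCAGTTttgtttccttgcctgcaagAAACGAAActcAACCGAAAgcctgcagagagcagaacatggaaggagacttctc

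At least 1 ISRE core stood in a window of 4 of the 5 genes, against 4.38% of 27305 genes with a window, and 3 of the 5 held at least 2 matches, against 0.311%. The IRF core is common, at 26.7% of genes, and all 5 genes held it. The letters TTCNNNGAA, the core of the gamma-activated site, were found in IFI27 alone of the 5, where they overlap both ISRE core matches, and in 9.38% of genes. Of 27 other interferon-stimulated genes with a window, 20 held the ISRE core. These matches describe letters in a fixed window and are not evidence of binding in HaCaT cells.

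**Figure D1:**
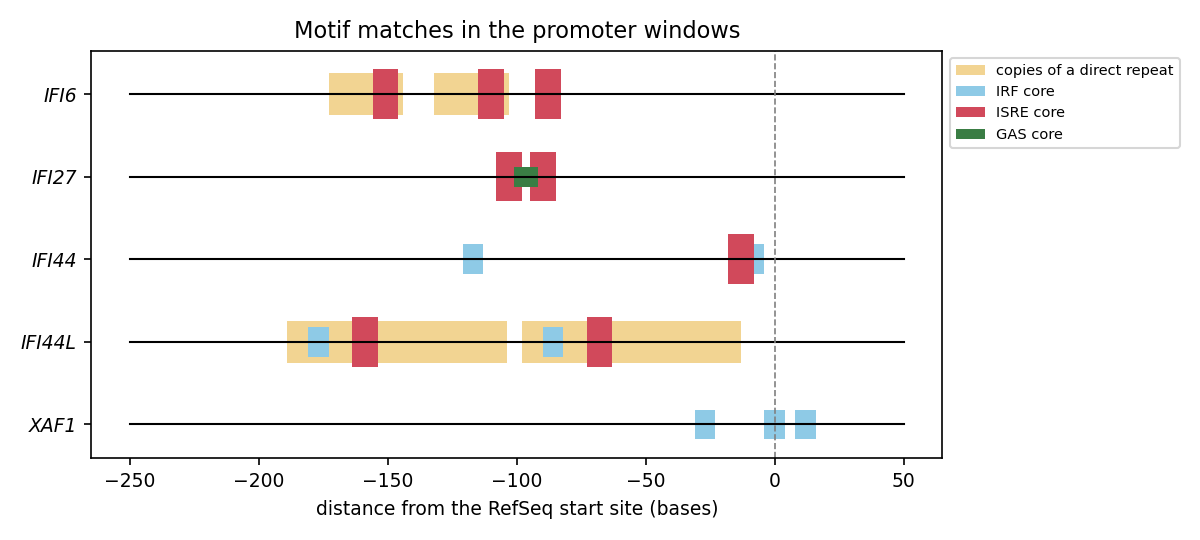
Motif matches in 1 RefSeq promoter window per gene, by distance from the start site in bases (dashed line). Red bars are ISRE core matches, blue bars IRF core matches outside them, the green bar a gamma-activated site core and the yellow bars the copies of a direct repeat of at least 20 bases. IFI6 has 3 red bars, IFI27 and IFI44L 2 each, IFI44 1 and XAF1 none.

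All 5 genes had a higher signal in the irradiated culture than in the mock culture of the same number, in every one of the 3 pairs. Values are deposited log2 signals, on which a difference of 1 stands for 2-fold. Across the 22411 genes, 25.4% were higher in all 3 pairs and 0.134% had a mean difference of at least 1 (9.94% and 0.29% of the genes above the background limit). By measured means all 5 genes differed by at least 1, but for IFI27 and IFI44L the mock signals lay below that limit and the size is uncertain. The genes were chosen with this contrast known, so their levels and differences are given as a description. In the RNA of whole cultures, a change in every cell and a change in some cells cannot be told apart.

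IFI6 lay at 10.81, 9.67 and 7.18 in mock replicates 1, 2 and 3 and at 13.45, 13.57 and 9.38 in the irradiated ones. Irradiated replicate 3 was below mock replicates 1 and 2, so the groups overlapped, although each irradiated culture exceeded its own mock culture. The mean went from 9.22 ± 1.86 to 12.13 ± 2.39 (SD, n = 3 per group), a difference of 2.92 or 7.55-fold, with 2.64, 3.91 and 2.20 in the pairs. Among the 9324 genes whose mean signal exceeded the background limit (6.01, the brightest of 23 background control sets), IFI6 had the largest mean difference. The limit is a mean over the arrays, and that control set itself read from 5.04 (mock replicate 2) to 7.25 (irradiated replicate 2), so a single value near the limit cannot be placed above or below background with certainty. Mock cultures alone spanned 3.63, or 12.4-fold, for IFI6, and 99.7% of those genes had a smaller SD among mock arrays.

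IFI27, the relative of IFI6, lay at 5.49, 5.16 and 5.14 in the mock arrays and at 6.46, 7.49 and 5.99 in the irradiated ones. The groups did not overlap, but all 3 mock values and irradiated replicate 3 lay below the background limit. Against the control set on its own array (5.04 and 5.57), mock replicate 2 and irradiated replicate 3 lay above it. The measured means were 5.26 ± 0.20 and 6.65 ± 0.77 (n = 3), a difference of 1.38 with 0.97, 2.33 and 0.85 in the pairs. With mock values set to the limit and irradiated values as measured, the irradiated mean was 1.55-fold higher. This is not a strict lower bound, because irradiated replicate 3 lay below the limit too. On irradiated replicate 2 the control set itself read 7.25, near the 7.49 of IFI27. The 3 mock values spanned 0.35.

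IFI44 lay at 8.51, 8.79 and 8.28 in the mock arrays and at 10.16, 10.96 and 9.59 in the irradiated ones. Every irradiated array was above every mock array, and all 6 were above the limit. The mean went from 8.53 ± 0.26 to 10.24 ± 0.69 (n = 3), a difference of 1.71 or 3.27-fold, with 1.65, 2.17 and 1.31 in the pairs. The SD of its pair differences, 0.43, was the smallest of the 5 genes but larger than that of 97.3% of genes above the limit. Groups failed to overlap, with irradiated arrays on top, for 2 of the 5 genes, IFI27 and IFI44, against 10% of all genes and 1.54% of those above the limit.

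IFI44L, whose gene lies next to IFI44, lay at 5.51, 4.55 and 4.73 in the mock arrays and at 7.61, 7.32 and 5.26 in the irradiated ones. Irradiated replicate 3 stayed below both the limit and mock replicate 1. The measured means were 4.93 ± 0.51 and 6.73 ± 1.28 (n = 3), a difference of 1.80, with 2.09, 2.77 and 0.53 in the pairs. With mock values set to the limit, the measured irradiated mean was 1.64-fold higher, which is not a strict lower bound here either.

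XAF1 lay at 9.29, 7.73 and 7.06 in the mock arrays and at 10.84, 10.38 and 7.75 in the irradiated ones. Irradiated replicate 3 was again below mock replicate 1, and at about the level of mock replicate 2. The mean went from 8.03 ± 1.15 to 9.65 ± 1.66 (n = 3), a difference of 1.63 or 3.09-fold, with 1.54, 2.65 and 0.69 in the pairs. Mock arrays spanned 2.23, or 4.69-fold, and 98.4% of genes above the limit had a smaller mock SD.

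**Figure D2:**
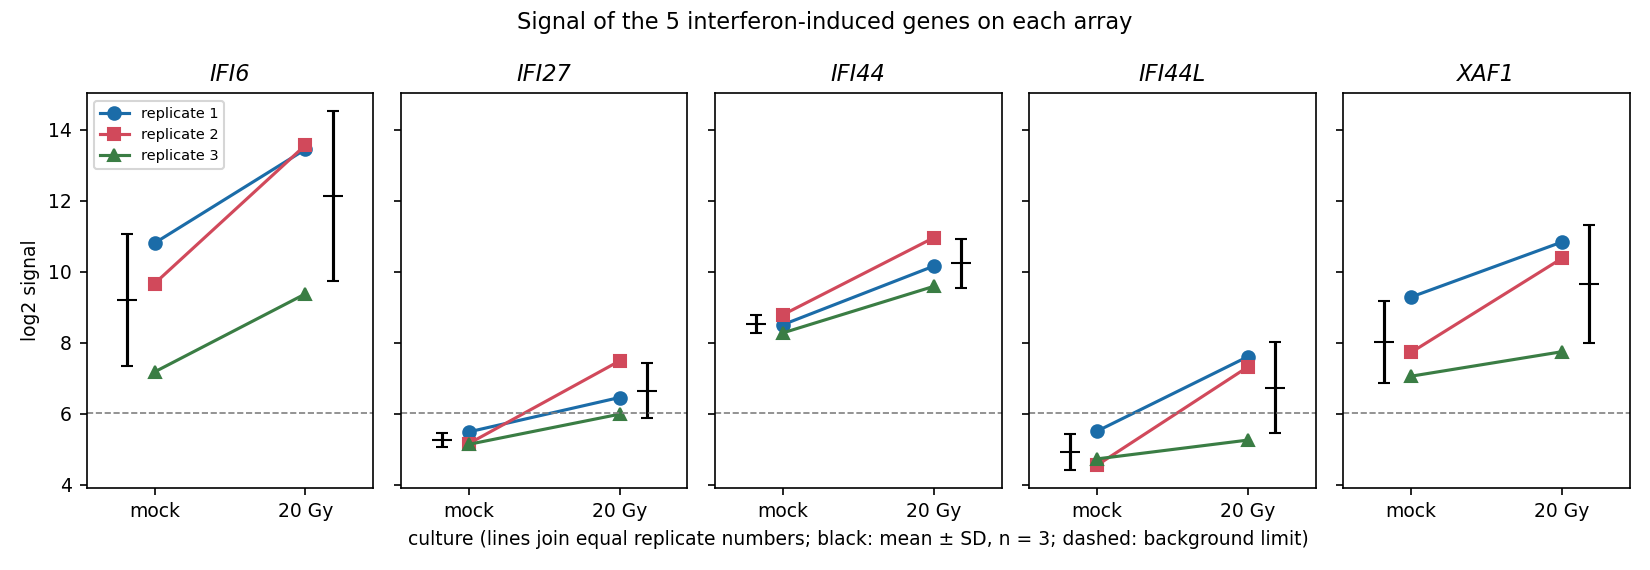
Log2 signal of the 5 genes on the 6 arrays, with lines joining the mock and the 20 Gy culture of the same replicate number, black marks for the mean ± SD (n = 3) and a dashed line at the background limit of 6.01. All 15 lines rise, and the green line of replicate 3 ends lowest in every panel. Levels of different genes come from different probes and are not comparable.

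The 5 genes shared the order of their cultures as well as their direction. The pair difference was largest in pair 2, next in pair 1 and smallest in pair 3 for all 5, an order that 4.37% of all genes and 1.83% of those above the limit showed with positive differences. Irradiated replicate 3 was the lowest irradiated array for all 5 (30.5% of all genes), and mock replicate 3 the lowest mock array for 4, the exception being IFI44L (29.9%). The 5 genes share the same 6 arrays, so they are not separate tests of that order. Over the 9324 genes above the limit the middle 98% of pair differences ended at 0.64, 0.75 and 0.69 in pairs 1, 2 and 3. IFI6 and IFI44 exceeded that in every pair, and XAF1 in pairs 1 and 2 but not in pair 3. IFI27 and IFI44L are not among those genes and were not read against them.

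**Figure D3:**
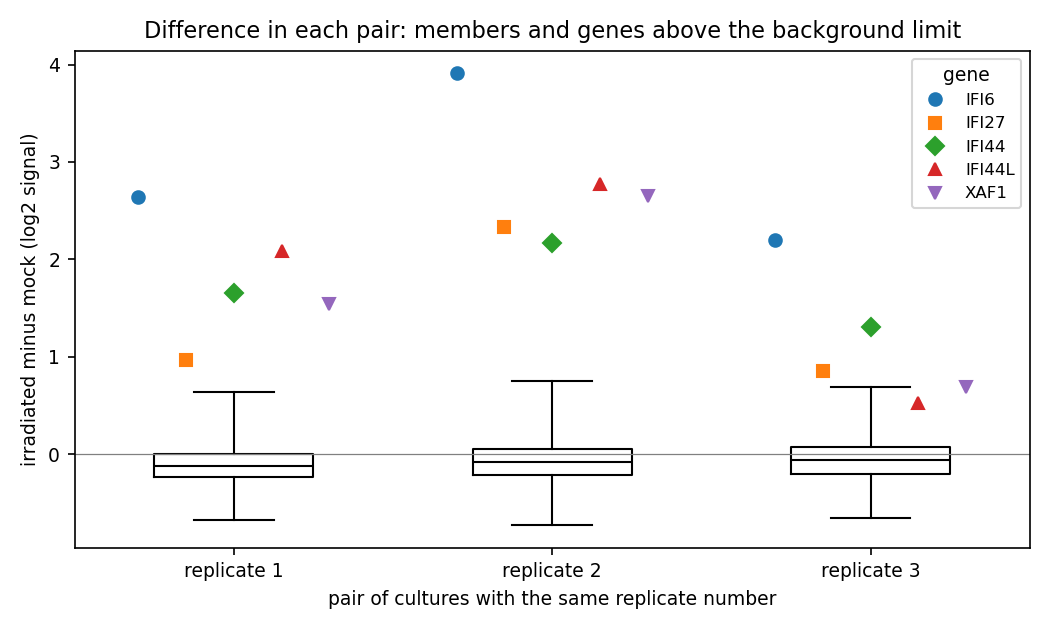
Difference between irradiated and mock culture (log2 signal) for the 5 genes, by replicate number. Boxes show the 9324 genes above the background limit (median, quartiles, whiskers at percentiles 1 and 99, the upper ones at 0.64, 0.75 and 0.69). Each gene is highest in pair 2 and lowest in pair 3. IFI27 and IFI44L are plotted at their measured values, with mock signals below the limit.

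The planned limma fit, which takes the 6 cultures as unpaired, called none of the 5 genes among 67528 clusters (0% called, 4822 clusters at an unadjusted p under 0.05). Its standard errors carry the spread between replicate numbers, so that IFI6 had a difference of 2.92 ± 1.35 (SE, adjusted p = 0.725) and IFI44 one of 1.71 ± 0.36 (SE, adjusted p = 0.607). With the replicate number as a block, the SE was 0.33 for IFI6 and 0.17 for IFI44, and still 0 clusters were called (0%, 10237 at an unadjusted p under 0.05), with an adjusted p of 0.210 for both. The blocked limma fit over the 9324 genes above the limit called 5.01% of genes, 1.3% as higher, and among the latter were IFI6 (adjusted p = 0.0160), IFI44 (adjusted p = 0.0160) and XAF1 (adjusted p = 0.0446). The XAF1 call was lost after quantile normalization (adjusted p = 0.0537), without pair 1 (0.0758) and without pair 2 (0.0508). IFI27 (mean 5.95) lay just under the limit and IFI44L (5.83) under it too, so neither entered that fit, and in the blocked fit over all clusters they had adjusted p-values of 0.226 and 0.231. The filter uses the mean of all 6 arrays, to which a high irradiated group contributes. In limma the SE of a gene is also drawn toward that of genes of similar signal. At least 97.3% of genes above the limit had a smaller SD of pair differences than IFI6, IFI44 and XAF1.

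Single arrays moved the sizes. Without mock replicate 3 the unpaired IFI6 difference was 1.90, and without irradiated replicate 3 it was 4.30. For XAF1 these values were 1.14 and 2.58, and 1.04 without irradiated replicate 1. The IFI44 difference ran only from 1.35 to 2.03 over the same fits. All 5 differences stayed positive with any array left out.

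Other interferon-stimulated genes were higher as well, from a list written with earlier results known. Of 35 genes, 34 were measured, and all 34 had a higher mean in irradiated cultures. In all 3 pairs 31 were higher, against 25.4% of all genes and 9.94% of those above the limit. The median difference was 0.93 against 0.014 over all named genes. Leaving out irradiated replicate 1 gave a median of 0.51, leaving out mock replicate 3 one of 0.57, and leaving out pair 2 one of 0.61. In the blocked fit over genes above the limit, 20 of 28 passed as higher and 0 as lower, against 1.3% of all 9324 genes as higher. The largest differences were those of OAS2, a synthetase that activates RNase L (1.87, from 9.09 ± 1.17 to 10.96 ± 1.32, adjusted p = 0.0210), IFIT1, which binds foreign RNA ends (1.85, adjusted p = 0.0160, with a mock mean of 6.03 at the limit), and RSAD2, the antiviral enzyme viperin (1.74, adjusted p = 0.0160). None of the 34 had a larger mean difference than IFI6. The smallest were LGALS3BP, a secreted glycoprotein (0.06, adjusted p = 0.762), and IFI35 (0.16, adjusted p = 0.376), neither of which passed. The cultures numbered 3 were low for this list too, with irradiated replicate 3 lowest for 30 of 34 genes and mock replicate 3 for 27. The pair order 2, 1, 3 with positive differences was shown by 17 of 34. Over all genes the 3 shares were 30.5%, 29.9% and 4.37%.

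Genes that act before these targets had smaller differences, in both directions. Of 22 ligands, receptors, kinases, IRF and SOCS genes, 18 were measured, 6 had a higher and 12 a lower mean, and the median difference was -0.03. All 8 interferon genes on the list, among them IFNB1 (3.51 ± 0.27 in mock, 3.45 ± 0.08 in irradiated cultures) and IFNL1 (4.45 ± 0.09 and 4.65 ± 0.06), had means below the limit. Of the 6 pathway genes above the limit 0 passed in the blocked limma fit. That fit called 5.01% of all genes above the limit, so a count of 0 among 6 does not set them apart. The largest differences among these were those of IL10RB, a receptor chain for lambda interferons (-0.38, adjusted p = 0.0771), and JAK1 (-0.28, adjusted p = 0.0699), both lower in every pair. RNA levels at 48 h do not measure receptor or kinase activity.

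The inhibitor of apoptosis family, to which XAF1's partner belongs, and its antagonists DIABLO and HTRA2 had small differences. XIAP, the caspase inhibitor that XAF1 binds, lay at 7.47 ± 0.07 in mock and 7.36 ± 0.05 in irradiated cultures (difference -0.11, adjusted p = 0.368). Of 8 measured genes of this list, which pools the family and its antagonists, 1 had a higher and 7 a lower mean. The median was -0.10, beside -0.09 over all genes above the limit. BIRC7, the higher one, lay below the limit, as did NAIP and HTRA2, and BIRC3 was not measured. The largest differences above the limit were those of BIRC5, or survivin (-0.17, adjusted p = 0.288), and BIRC6 (-0.12, adjusted p = 0.442). Of the 5 above the limit 0 passed, beside 5.01% of all genes above it, so this count does not set them apart.

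The relatives of IFI27 and the neighbours of the 5 genes on the chromosome had small differences. IFI27L1 and IFI27L2, which are related to IFI27 and flank it, lay at 5.83 ± 0.04 and 5.78 ± 0.25 in mock cultures and at 5.74 ± 0.13 and 5.71 ± 0.28 in irradiated ones, all below the limit. The other nearest measured genes were FGR (0.17) and FAM76A (-0.10) around IFI6, PTGFR (0.04) and ADGRL4 (0.15) around the IFI44L and IFI44 pair, and SLC13A5 (0.09) and FBXO39 (0.13) around XAF1. The 8 neighbours ranged from -0.10 to 0.17, against measured values of 1.38 to 2.92 for the 5 genes. FAM76A was the 1 neighbour above the limit, and it did not pass (adjusted p = 0.376). For the 7 below it a small change would not be seen.

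**Figure D4:**
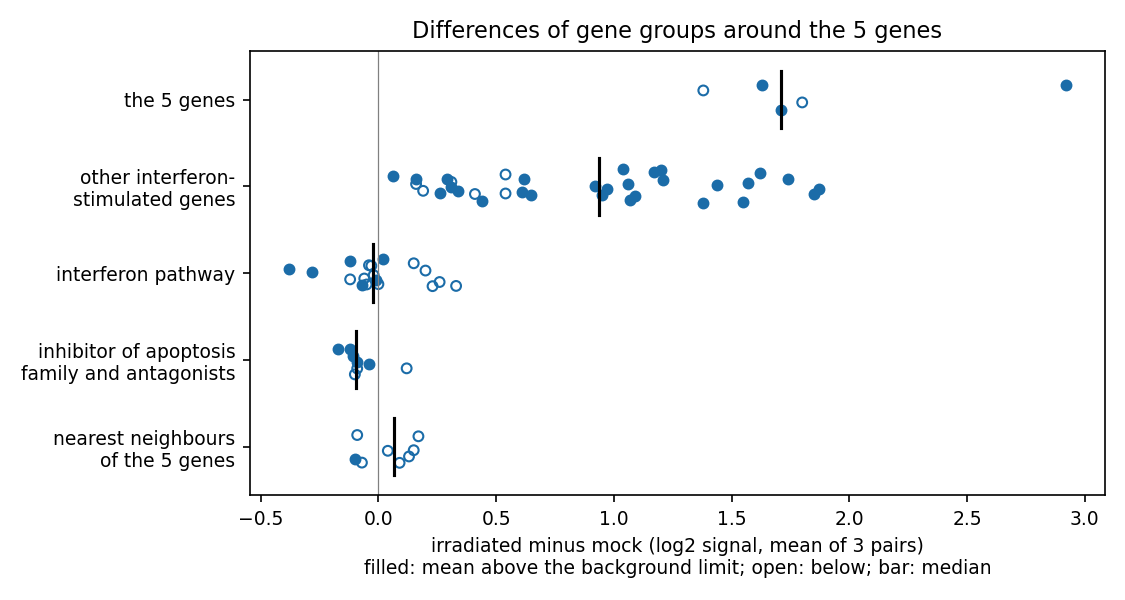
Irradiated minus mock difference (log2 signal, mean of 3 pairs) for the 5 genes and 4 groups around them. Each point is a gene, filled where its mean lay above the background limit, and bars are medians. The 5 genes lie from 1.38 to 2.92, the other interferon-stimulated genes from 0.06 to 1.87 and the 8 neighbours from -0.10 to 0.17.

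Profiles were compared by Pearson's r over the 6 arrays with the genes above the limit, as a description, since the 6 values share groups and replicate numbers. Between the 5 genes r ran from 0.734 (IFI44 and XAF1) to 0.969 (IFI6 and XAF1), with 0.968 for IFI27 and IFI44 and 0.853 for the neighbours IFI44 and IFI44L. The profile most like IFI6 was that of PARP12, an interferon-induced ADP-ribosyltransferase (r = 0.998), followed by PARP9 (0.994) and OAS2 (0.993). XAF1 was most like CEACAM1, an adhesion molecule (0.992), then MX1, an antiviral GTPase (0.991), and CHST14 (0.990). IFI44L was most like HERC6 (0.990), SOX9 (0.986) and RND3 (0.975). IFI44 was most like MIR4516 (0.991), DHX58 (0.986) and PLEKHF1 (0.983), and IFI27 like SNAR-D (0.970), DHX58 (0.968) and PLEKHF1 (0.963).

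The 10 genes most like the mean of the 5 centred profiles were KPNA4 (0.991), EPSTI1 (0.989), PARP12 (0.985), OAS2 (0.984), MX1 (0.980), USP18 (0.978), USP41P (0.976), SNAR-D (0.976), KCNQ1DN (0.975) and ELOVL4 (0.975). Of these, 4 were on the list of interferon-stimulated genes, namely EPSTI1, OAS2, MX1 and USP18. That list, written with earlier results known, held 28 of the 9321 genes compared. IFI27 and IFI44L entered the mean profile with mock values below the limit. Likeness ignores size: KPNA4, a nuclear import receptor, differed by 0.25 and ELOVL4, a fatty acid elongase, by 0.20, and neither passed the blocked limma fit (adjusted p = 0.0952 and 0.155). USP41P is a near copy of USP18, so their probes may share signal.

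The arrays carried the RNA of keratinocytes. All 8 measured keratinocyte markers were above the limit, among them KRT5 and KRT14, and their mean per array ran from 13.91 to 14.40 in mock and from 13.62 to 14.32 in irradiated cultures. DSP (-0.42, adjusted p = 0.0360) and PKP1 (-0.55, adjusted p = 0.0295), both desmosome proteins, fell in the blocked limma fit. Of 21 measured markers of leukocytes, plasmacytoid dendritic cells, fibroblasts, melanocytes and endothelium, 19 were below the limit, including PTPRC and CLEC4C. Of these 21, 20 had a higher mean in irradiated cultures, as did 71.7% of all genes below the limit, while 6 of the 8 keratinocyte markers had a lower one and 28.2% of genes above the limit a higher one. The 2 above it were TCF4 (0.03) and CD68, a lysosomal protein that many cell types carry, which rose by 0.44 (adjusted p = 0.0334). The mean of the 6 leukocyte markers per array was 4.74 to 4.86 in mock and 4.83 to 5.03 in irradiated cultures. Whether cells of another type add to the values of the 5 genes was not tested. Array medians over all clusters ran from 4.53 to 4.66, in values that had already been normalized between arrays.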

How the data were processed

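Total RNA of 6 HaCaT cultures was labelled with biotin and hybridised to 1 array each, per the labels. The authors deposited log2 signals, made with RMA per the submitters' processing notes (background correction, quantile normalization and summary per transcript cluster), with version and build not given in the sources used here. An exon-level table of deposited log2 signals, from an SST-RMA workflow per the file headers, shares with it 2995 control features but no signal of a gene. It holds the same values for these controls (largest difference 0), so the gene-level signals may also be SST-RMA. The exon-level table was used for nothing else, because no source here pairs exon-level features with genes.

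Symbols came from the platform annotation (23781 clusters with 1 symbol, 1543 with several and not named) and were updated through RefSeq gene tables of GRCh38.p14. Promoter windows are from the same source. No cluster of the 5 genes shared all its values with another cluster.

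The irradiated and mock arrays were compared in limma 3.58.1 under R 4.3.3 (lmFit, eBayes with a trend, two-sided, Benjamini-Hochberg, threshold 0.05), unpaired as planned, with a replicate block as an alternative. On simulated data, the check required only that the fits return the size of planted changes. It set no requirement for calls or p-values. Adjusted p-values not otherwise named in the report are from the blocked fit over the 9324 genes above the limit. Cultures were paired by the numbers in the sample titles, which do not state that the groups were paired. Arrays of the same number deviated together (r of 0.523, 0.644 and 0.705 for deviations from group means). Arrays of different numbers did so less (r from -0.555 to 0.0721). Deviations cancel out within a group, so these lower values are not separate support for the pairing. The genes, lists, motifs and alternatives were chosen with earlier results of these data known.

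Most genes other than the 5 were named by rules. These were the largest and smallest differences of the interferon-stimulated list, and the largest above the limit in the pathway and inhibitor of apoptosis lists. The nearest measured neighbours and the highest r over 6 arrays were further rules, and XIAP, IFI27L1 and IFI27L2 were always named. Some other genes of the lists, such as IFNB1, IFNL1, BIRC7 and the cell type markers, were named outside these rules. Lists are described by counts and medians, without a set test. The number of arrays limits the precision, and whether cultures were grown on separate days is not given. Unpaired p-values are set against the spread between these cultures, and blocked ones against the spread of the differences between their pairs. In both, eBayes draws the spread of a gene toward that of genes of similar signal. The pair differences of IFI6, IFI44 and XAF1 had SDs of 0.88, 0.43 and 0.98, beside a median of 0.125 over genes above the limit. Their blocked p-values therefore rest in part on the smaller spread of other genes.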

Additional observations from a re-analysis of the deposited data

How the results depend on the processing

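Differences of the 5 genes kept their sign under quantile normalization, cyclic loess, median centring and all fits without 1 array or 1 pair, and none passed in an unpaired fit. With the replicate block over genes above the background limit, IFI6 (2.92), IFI44 (1.71) and XAF1 (1.63) passed, and after quantile normalization IFI6 (3.04) and IFI44 (1.80) did. Without 1 pair, the same blocked fit gave 3.05, 2.42 and 3.27 for IFI6 and 1.74, 1.48 and 1.91 for IFI44 (without pair 1, 2 and 3), each passing. It gave 1.11 to 2.10 for XAF1, which passed without pair 3 only. With 2 pairs left, the SE of a gene in this fit rests largely on other genes. Passing there says little about the gene's own spread. Calls over all clusters were 0 unpaired and with the replicate block, and also 0 with the block over all genes with a single symbol (lowest adjusted p = 0.0759). With the block over genes above the limit they were 467, 203 after quantile normalization, and 251, 66 and 140 without pair 1, 2 and 3. The blocked fits without a pair and the blocked fit over all genes with a single symbol were added after the data were seen. The unpaired fits without a pair were planned. With 1 or 2 arrays left out, the median of the interferon-stimulated list ran from 0.51 to 1.29 (0.61 without pair 2) and that of the pathway list, which is near 0, from -0.045 to 0.030, turning positive without mock replicate 1 (0.020), irradiated replicate 1 (0.022), both (0.030) or mock replicate 3 (0.0028). The inhibitor of apoptosis median was -0.17 after median centring, -0.039 after cyclic loess and -0.047 after quantile normalization. With 3 complete pairs the replicate block cannot change a mean difference, so list medians are the same with it. No second cluster carried any of the 5 symbols, so that alternative could not be run. IFI27 and IFI44L are limited by signal near background, where folds are uncertain.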
